A study of Caenorhabditis elegans with 2 samples.

Results

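ZAG-1 peaks that lay between genes on the autosomes of Caenorhabditis elegans are described here. Of the 1803 peaks in the authors' list past the irreproducible discovery rate (IDR) threshold, 401 (22.2%, 95% Wilson interval 20.4 to 24.2) were autosomal and intergenic. A peak was counted when its summit lay in no annotated gene of any kind. The summit also had to lie outside the stretch from 500 bp upstream to 100 bp downstream of every protein-coding transcript start. Among the 1389 autosomal peaks the share was 28.9%, against 582 promoter peaks and 290 intron peaks. Chromatin was immunoprecipitated from whole L2 larvae of strain OP83, labelled as mixed sex. This strain carries unc-119(ed3) on III and the insertion wgIs83, through which ZAG-1 is expressed with an eGFP tag. The 2 biological replicates share this genotype and form 1 group, with no untagged or wild-type group, so no comparison between conditions could be made. Chromatin came from whole animals, so a peak cannot be given to a cell type. Scores are the authors' own, read depth is unknown, and intervals cover the counting of peaks only. Peaks are not independent replicates, and p-values describe these libraries.

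ZAG-1 is the worm member of the ZEB family, transcription factors that combine zinc fingers with a homeodomain. It is known for its part in the differentiation of neurons, and ZEB proteins of vertebrates bind E-box sequences such as CAGGTG. Worm genes are packed closely, and much of their control lies in short stretches upstream of the start. Sequence between genes also holds small RNA genes, among them spliced leader RNA and small nucleolar RNA (snoRNA) genes, which have starts of their own outside the promoter rule used here.

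The windows of 121 bp around the summits of the highest-scoring peaks are shown first, since they hold the short words that recur across the 401. Windows are printed for peaks on II, III, IV and V, where 9 of the 12 highest-scoring lie. Capitals mark 5 words on either strand. They are GAGAGA with its reverse complement TCTCTC, then CGTCTC with its reverse complement GAGACG, then ACGCAG with its reverse complement CTGCGT, then CACACA with its reverse complement TGTGTG, and the E-box CAGGTG with its reverse complement CACCTG. All are plus-strand sequence of ce11, read from the RefSeq copy of that assembly, and each is named by its flanking protein-coding genes.
let-70 to klc-1, chrIV:11082978-11083098: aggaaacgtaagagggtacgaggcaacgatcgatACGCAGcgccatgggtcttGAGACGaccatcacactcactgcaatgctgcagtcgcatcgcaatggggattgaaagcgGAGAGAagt
nep-25 to ZK1248.17, chrII:5844748-5844868: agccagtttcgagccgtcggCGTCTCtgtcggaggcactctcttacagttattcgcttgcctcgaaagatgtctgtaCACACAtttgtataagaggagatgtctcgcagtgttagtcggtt
K12H4.6 to K12H4.5, chrIII:8043919-8044039: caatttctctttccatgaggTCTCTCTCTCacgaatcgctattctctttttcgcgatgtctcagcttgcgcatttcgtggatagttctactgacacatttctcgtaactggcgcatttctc
C17C3.24 to ins-13, chrII:5543507-5543627: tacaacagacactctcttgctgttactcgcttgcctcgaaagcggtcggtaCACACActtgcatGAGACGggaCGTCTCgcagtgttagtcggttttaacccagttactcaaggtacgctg
F54F12.1 to Y39E4B.6, chrIII:13062567-13062687: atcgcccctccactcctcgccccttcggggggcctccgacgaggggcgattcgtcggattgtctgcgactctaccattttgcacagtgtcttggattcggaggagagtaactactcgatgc
mtm-3 to xbx-5, chrIII:3801511-3801631: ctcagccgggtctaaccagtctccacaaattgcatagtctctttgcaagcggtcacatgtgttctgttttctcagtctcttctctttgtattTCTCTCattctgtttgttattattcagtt
F38A6.4 to hif-1, chrV:20778366-20778486: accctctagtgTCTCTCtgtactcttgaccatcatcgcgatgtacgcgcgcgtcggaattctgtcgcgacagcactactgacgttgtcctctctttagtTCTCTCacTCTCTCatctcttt
znf-782 to csn-4, chrIV:1070518-1070638: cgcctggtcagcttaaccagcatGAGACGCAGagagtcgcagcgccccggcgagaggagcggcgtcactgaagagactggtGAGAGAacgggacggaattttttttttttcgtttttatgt
sup-26 to R10E4.3, chrIII:4282214-4282334: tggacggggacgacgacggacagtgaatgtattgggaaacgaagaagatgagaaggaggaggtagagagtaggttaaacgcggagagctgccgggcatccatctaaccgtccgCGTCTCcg
The sites at nep-25 and at ins-13 each stand beside an SL2 spliced leader RNA gene. The longest stretch their windows share is gtctcgcagtgttagtcggtt, 21 bases. The site at F54F12.1 held none of the 5 words within this window.

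The next windows are the 4 highest-scoring on II to V beside genes used in all neurons, and are shown because that gene list stood furthest above the background described below. The same words are in capitals.
egl-3 to cul-5, chrV:10174746-10174866: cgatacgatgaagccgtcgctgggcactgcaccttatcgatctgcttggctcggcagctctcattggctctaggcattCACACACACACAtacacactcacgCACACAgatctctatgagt
C15F1.1 to unc-104, chrII:6993055-6993175: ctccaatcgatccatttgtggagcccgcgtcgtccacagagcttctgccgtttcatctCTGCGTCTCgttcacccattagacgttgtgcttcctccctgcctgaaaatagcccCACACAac
cpf-2 to unc-64, chrIII:13275876-13275996: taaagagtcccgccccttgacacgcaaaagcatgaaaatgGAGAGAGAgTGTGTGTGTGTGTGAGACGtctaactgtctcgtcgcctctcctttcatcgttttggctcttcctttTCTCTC
Y39A3CL.3 to rimb-1, chrIII:1785939-1786059: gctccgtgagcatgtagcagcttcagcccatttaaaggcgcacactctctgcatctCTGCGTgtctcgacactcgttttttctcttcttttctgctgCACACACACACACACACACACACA
The window at unc-104 holds CTGCGTCTC, in which CTGCGT (the reverse complement of ACGCAG) and CGTCTC overlap. Those at egl-3, unc-64 and rimb-1 hold runs of CA repeats, and the one at unc-64 also holds GA repeats.

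A pair of windows beside snoRNA genes and short windows around 5 of the 6 CAGGTG sites, again those on II to V, complete the set. In the snoRNA windows the words are marked as above, and in the 30-bp windows only CAGGTG or CACCTG is in capitals.
din-1 to ghi-1, chrII:11635146-11635266: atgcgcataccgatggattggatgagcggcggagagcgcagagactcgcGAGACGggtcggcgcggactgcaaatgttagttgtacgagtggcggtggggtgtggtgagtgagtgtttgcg
C07C7.1 to C46C2.5, chrIV:9191315-9191435: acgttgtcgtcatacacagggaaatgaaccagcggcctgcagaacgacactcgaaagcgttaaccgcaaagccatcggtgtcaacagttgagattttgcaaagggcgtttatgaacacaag
Y17G7B.17 to Y17G7B.18, chrII:12102615-12102644: tcgagaatgttcCAGGTGttgtggtgaatg
gpb-1 to F44E5.4, chrII:11749682-11749711: cgtcaagctgctCACCTGggtctccgcact
C07A9.12 to dao-6, chrIII:9731434-9731463: aaatgatcccgaCAGGTGatggtcccggga
alh-1 to cox-6A, chrIII:5080923-5080952: ttatatagtggcCACCTGcaaggcggcaga
vps-36 to ctf-4, chrV:10961748-10961777: gactatgagacgCAGGTGgtaaaagataac
At vps-36 the CAGGTG word overlaps an ACGCAG word, which in turn overlaps GAGACG.

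Among themselves the intergenic peaks spanned a wide range of strength. Their scores ran from 29.7 to 230.2 with a median of 43.5, against medians of 45.9 at promoters and 42.4 in introns. The score lay above the median of the whole list in 190 of 401 intergenic peaks (47.4%), against 304 of 582 promoter peaks (52.2%; two-sided Fisher's exact test, adjusted p = 0.341) and 128 of 290 intron peaks (44.1%; adjusted p = 0.628). The p-values of this and the other class comparisons were adjusted by the Benjamini-Hochberg method over 10 comparisons. The difference was −4.85 percentage points from promoters and 3.24 points from introns, and neither passed. Without replicate 2, with the 1803 highest-scoring peaks of replicate 1 alone, these were −3.07 and 1.57 points. Without replicate 1 they were −4.46 and 6.73 points. Of the 401 peaks, 391 had the same width of 376 bp. The other 10 were narrower, all had scores of at least 89.6, and 8 of them were among the 12 highest.

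**Figure D1:**
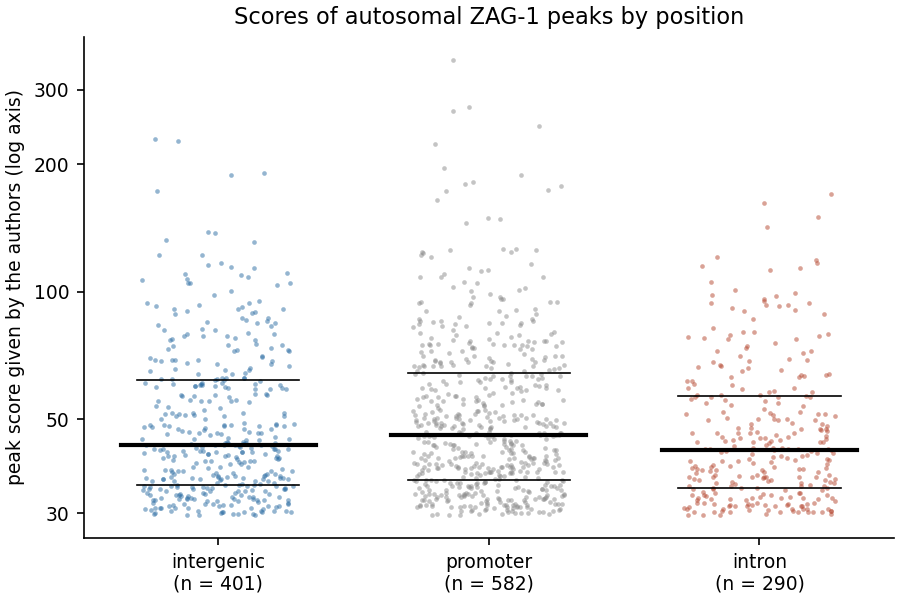
Score given by the authors (vertical, log axis) for every autosomal intergenic, promoter and intron peak of the IDR-thresholded list. Each point is 1 peak, thick lines are medians and thin lines quartiles; the medians of 43.5, 45.9 and 42.4 lie close together, and the highest intergenic peaks reach 230.2 against 354.0 at promoters.

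The strongest intergenic peaks were strong in each replicate. The highest lay between let-70, a ubiquitin-conjugating enzyme gene 785 bp away, and klc-1, a kinesin light chain gene whose start was 697 bp away (IV, 11082942 to 11083185, score 230.2). Its own peak scored 150.2 in replicate 1 (rank 12 of 24146) and 80.2 in replicate 2 (rank 15 of 29374). Both gene ends that face this site are 5′ ends, and a snoRNA gene, M7.15, begins 109 bp from the summit. Next was a peak in the 633 bp between nep-25 and ZK1248.17 (II, 5844672 to 5844890, score 227.8), with 148.3 in replicate 1 (rank 13) and 80.6 in replicate 2 (rank 14). Here the facing ends are both 3′ ends, at 188 and 446 bp.

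The next peak lay between egg-5, a gene of the oocyte-to-embryo transition, and R12E2.11 (I, 4172046 to 4172268, score 191.2, rank 24 in replicate 1 and 26 in replicate 2). A peak 508 bp from the start of K12H4.5 and 1104 bp from that of K12H4.6 followed (III, 8043851 to 8044041, score 188.5, ranks 30 and 21). The fifth stood 945 bp from the 3′ end of ins-13, an insulin-like peptide gene, and 1782 bp from the start of C17C3.24 (II, 5543458 to 5543662, score 173.4, ranks 23 and 59). The egg-5 and ins-13 sites, like the one at nep-25, adjoin SL2 RNA genes.

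The other 7 of the 12 scored between 116.9 and 138.9 and ranked between 51 and 74 in replicate 1 and between 60 and 172 in replicate 2. They lay in 4 divergent and 3 tandem gaps. The site between F54F12.1 and Y39E4B.6 (III, 13062439 to 13062814, score 138.9) was 7185 and 8129 bp from those genes. The site between vpr-1, which encodes a VAP protein, and cdc-7, a kinase gene of DNA replication (I, 5870707 to 5870831, score 137.6), was 799 and 1421 bp from their starts. The site at otub-2, an otubain-type deubiquitinase gene, was 942 bp from its start and 3534 bp from that of R119.5 (I, 397761 to 398136, score 132.6).

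Between mtm-3, a myotubularin phosphatase gene, and xbx-5 the summit was 1104 bp from the mtm-3 start and 330 bp from the 3′ end of xbx-5 (III, 3801485 to 3801612, score 131.3). The site at hif-1, the hypoxia-inducible factor gene, was 1981 bp from its start and 3057 bp from that of F38A6.4 (V, 20778238 to 20778613, score 122.4). That at csn-4, a COP9 signalosome subunit gene, was 6885 bp from its 3′ end and 3053 bp from the start of znf-782 (IV, 1070486 to 1070593, score 122.1). The last of the 12 was 2050 bp from the start of sup-26, an RNA-binding protein gene, and 3567 bp from R10E4.3 (III, 4282086 to 4282461, score 116.9). No single orientation of the flanking genes was shared by the 12, which comprised 6 divergent, 5 tandem and 1 convergent gap.

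Over all 401, 341 (85.0%) coincided with a peak among replicate 1's top 1803 by score, and 316 (78.8%) with one among replicate 2's top 1803. At promoters the shares were 86.1% and 77.8%, and in introns 86.2% and 75.9%; the 4 adjusted p-values by Fisher's exact test ran from 0.628 to 0.753. Both replicates supplied such a peak for 262 intergenic peaks (65.3%, interval 60.5 to 69.8), including all 50 of the highest-scoring, and neither did for 6. The authors made their list from these replicate lists, so the overlap is a description and not separate support. With every peak of each replicate list, all 401 overlapped replicate 1 and 398 overlapped replicate 2. The 3 without a peak in replicate 2 lay between gpb-2 and F52A8.3, between C36B1.9 and gskl-2, and between vig-1 and jip-1, and scored 34.0, 32.8 and 32.0. Across the other 398, the scores in the replicates had a Spearman correlation of 0.491, across peaks that share 2 libraries. The widest gap in rank was at the site between spo-11 and swsn-4, the ATPase subunit gene of SWI/SNF, which ranked 596 in replicate 1 and 24613 in replicate 2 (IV, 11125229 to 11125604).

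**Figure D2:**
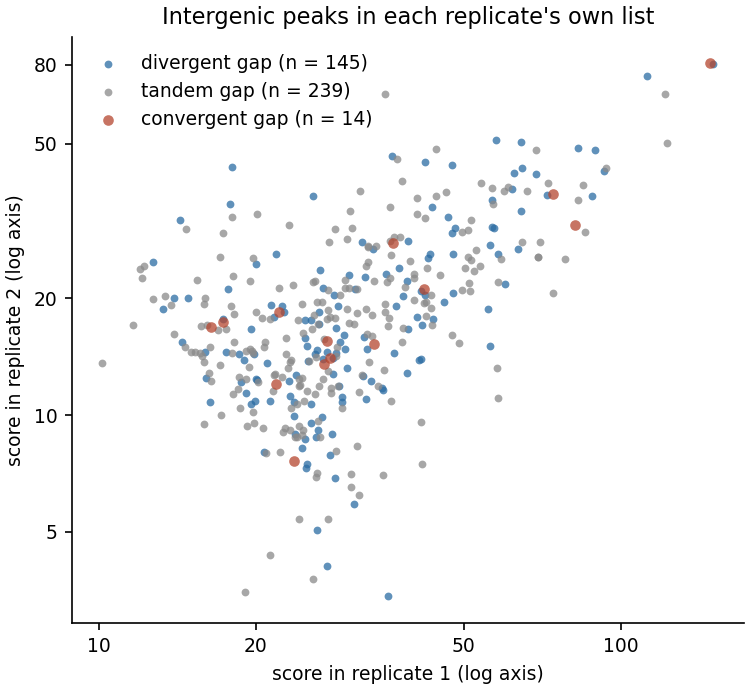
Score of each intergenic peak in replicate 1 (horizontal) and replicate 2 (vertical), both on log axes, for the 398 peaks with a peak in both lists. Colours give the orientation of the flanking genes; the few highest points are high in both replicates, while low points spread widely (Spearman correlation 0.491).

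Few of the peaks lay between converging genes. A gap between protein-coding genes is divergent when both facing ends are 5′ ends, tandem when 1 is, and convergent when neither is. Divergent gaps held 145 peaks (36.2%, interval 31.6 to 41.0) and make up 32.1% of the 20.07 Mb of autosomal bases that meet the same positional rule, called eligible bases below. Tandem gaps held 242 peaks (60.3%, interval 55.5 to 65.0) against 54.0% of bases. Convergent gaps held 14 peaks (3.49%, interval 2.09 to 5.77) against 13.8% of bases, and the share was 5.33% without replicate 1. Per Mb this was 22.5 peaks in divergent, 22.3 in tandem and 5.07 in convergent gaps. Within tandem gaps 99 of 242 summits (40.9%, interval 34.9 to 47.2) were nearer to the 5′ end than to the 3′ end, against 40.8% of tandem bases.

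Distance to a gene start was graded, and most peaks were not close to the promoter limit. For the 387 peaks with a facing 5′ end, the nearest was 1898 bp away at the median (quartiles 1084 and 3408), against 2314 bp for eligible bases. A facing 5′ end lay within 2000 bp of 201 of the 401 peaks (50.1%, interval 45.3 to 55.0), against 38.4% of bases. Within 5000 bp the shares were 83.0% of peaks and 66.8% of bases. The density was 23.7 peaks per Mb between 500 and 1000 bp, 31.7 between 1000 and 1500 bp, 14.9 between 5000 and 10000 bp, and 11.6 beyond. The median distance between the facing gene ends was 5205 bp around peaks and 6370 bp over eligible bases. Toward 3′ ends there was no such grade, with 16.6 peaks per Mb within 500 bp, a highest value of 29.9 between 1500 and 2000 bp, and 19.7 beyond 10000 bp. These densities include convergent gaps, which held 5.07 peaks per Mb, and those for 5′ ends do not. The profiles are therefore not like for like.

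**Figure D3:**
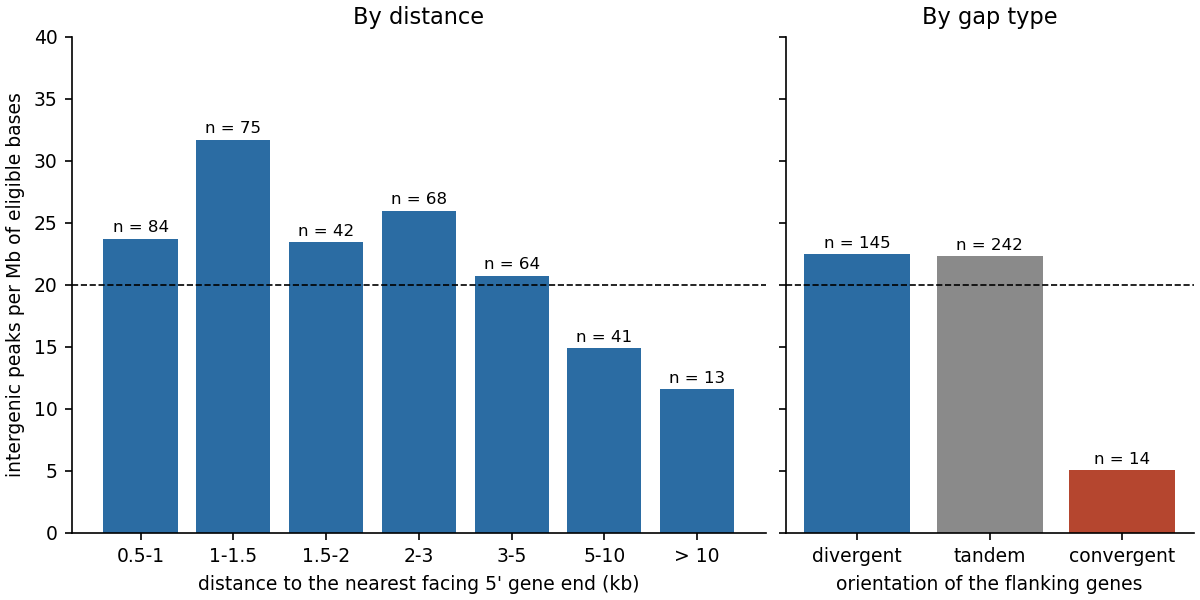
Intergenic peaks per Mb of eligible bases, by distance to the nearest facing 5′ gene end in kb (left) and by orientation of the flanking genes (right), with the number of peaks above each bar and the mean of 19.98 per Mb as a dashed line. Bars within 3 kb stand above the mean, those beyond 5 kb below it, and the bar for convergent gaps is the lowest at 5.07.

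The peaks just inside the 500 bp limit were 508 bp from K12H4.5 (score 188.5), 515 bp from a start between hrpf-1 and gpc-2 (47.4), and 517 bp from a start between str-187 and atgp-1 (30.7). The promoter peaks just outside lay 482, 479 and 477 bp upstream of a start and scored 40.8, 33.1 and 48.3. Between 501 and 600 bp there were 19 intergenic peaks, and between 401 and 500 bp there were 28 promoter peaks outside genes. At the far end, a peak on IV (16048822 to 16049197, score 35.1) was 22163 bp from jac-1, a p120-catenin gene, and 18160 bp from the gene on its other side. Others were 10708 bp from srab-24 and 15539 bp from ilcr-1 (IV, 14260733 to 14261108, score 33.0), and 9941 bp from D1046.4 and 9083 bp from tpra-1 (IV, 8947218 to 8947593, score 32.4). All 3 of these far peaks had a piRNA gene as a neighbour, at 234, 351 and 289 bp.

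The peaks were spread unevenly over the autosomes. I had 104 (34.0 per Mb of eligible bases) and III had 95 (31.8 per Mb), against 66 on II (17.3), 81 on IV (15.9) and 55 on V (10.7). Peaks of every class were also most numerous on I (333) and III (299), against 248 on II, 269 on IV and 240 on V. The intergenic share of them was 31.2% on I, 26.6% on II, 31.8% on III, 30.1% on IV and 22.9% on V. When each chromosome was divided into 3 equal stretches, the middle ones held 28.1 peaks per Mb, against 16.4 and 15.7 in the left and right ones. On each of the 5 chromosomes the middle stretch had the highest density, with III the flattest at 32.4, 34.3 and 28.6. This division was chosen after earlier results were known.

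The gaps of a few genes held several peaks. The 401 lay in 352 gaps, of which 311 held 1, 33 held 2 and 8 held 3. The 8 gaps were those between rho-1, a small GTPase gene, and zip-7; tax-6, a calcineurin A gene, and C02F4.4; hrdl-1 and ncx-4; F38A6.4 and hif-1; F45D3.1 and F45D3.2; F54F12.1 and Y39E4B.6; mvk-1, a mevalonate kinase gene, and wht-7; and F11A6.16 and kpc-1, a proprotein convertase gene. The gap between F54F12.1 and Y39E4B.6 was the one whose 3 peaks were all strong, with scores from 94.3 to 138.9. Another peak of the list lay within 1 kb of 35 intergenic peaks (8.73%), against 32 promoter peaks (5.50%; Fisher's exact test, adjusted p = 0.268) and 36 intron peaks (12.4%; adjusted p = 0.341). Neither difference passed at 1 kb. Of the 35, 15 had that neighbour 199 to 207 bp away, none had it at 211 to 599 bp, and 20 had it at 600 to 1000 bp. Such close neighbours, at 210 bp or less, were also found for 5 of 582 promoter peaks and 12 of 290 intron peaks. In the close pairs with an intergenic peak, 1 peak was often far stronger than the other, such as 227.8 and 42.6 at nep-25 or 122.4 and 35.0 at hif-1. Whether the weaker peak of such a pair is a separate site was not tested.

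Small RNA genes stood beside several of the strongest peaks. Within 200 bp of a summit there was a snoRNA gene for 9 peaks (2.24%, interval 1.18 to 4.21), against 1.89% of promoter peaks, 6.90% of intron peaks and 0.147% of eligible bases. A small nuclear RNA (snRNA) gene was that near for 7 (1.75%, interval 0.848 to 3.56), against 0.515% of promoter peaks, 1.03% of intron peaks and 0.0851% of bases. The annotation puts SL2 RNA genes in the snRNA class. All 9 snoRNA sites were on the upstream side, 19 to 109 bp from the gene. Of the 12 highest-scoring peaks, 4 had a snoRNA or snRNA gene within 200 bp, among 18 of all 401 with a tRNA, miRNA, snoRNA or snRNA gene that near. These classes other than tRNA were counted after earlier results were known and were not tested between classes of peak. A summit inside a small RNA gene could count as an intron or promoter peak but not as intergenic. The shares of the classes are therefore not like for like.

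SL2 RNA is trans-spliced to the downstream genes of worm operons, and its genes are short and present in many copies. A strong peak lay 57 bp upstream of sls-2.1 (score 227.8), 29 bp upstream of sls-2.4 (191.2) and 31 bp upstream of sls-2.2 (173.4). Each of these genes also had a weaker peak 38 to 66 bp downstream, 204 bp from the strong one, with scores of 42.6, 41.2 and 36.8. The weaker peak at sls-2.4 had no summit of its own in replicate 2, where the nearest was that of the strong peak (rank 26). Of the 18 autosomal sls-2 genes, 4 had a summit of the list within 100 bp upstream: these 3, and sls-2.8, whose peak met the promoter rule (76.7). Of the other 14, 7 were overlapped there by a weaker peak of the pooled list and 5 by a peak of both replicate lists. Over the 100 bp upstream of the start, sls-2.1 and sls-2.2 were identical at 79% of positions, sls-2.1 and sls-2.4 at 62%, and sls-2.2 and sls-2.4 at 57%. The median over all pairs of the 18 genes was 37%, and the most alike pair reached 96%. How the authors treated reads that align to several copies is not given in the sources used here, and its part in these scores was not tested.

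Small RNA genes were also common in the convergent gaps. Of the 14 convergent peaks, 7 had a tRNA, miRNA, snoRNA or snRNA gene within 200 bp (50%, interval 26.8 to 73.2), against 11 of the 387 others (2.84%, interval 1.59 to 5.02). Among eligible convergent bases 0.952% lie that near. The 7 were the pair at sls-2.1, those at the snoRNA genes C46C2.8, F32E10.10, W01C9.6 and W03C9.9, and a peak 179 bp upstream of the microRNA gene mir-53, between alh-3 and hrg-5 (IV, 11027682 to 11028057, score 107.5, ranks 96 and 155). Of the convergent peaks with no such gene, the highest lay between W04D12.1 and ddx-23, a helicase gene, 8496 and 3159 bp away (III, 5845491 to 5845866, score 114.2).

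tRNA genes were seldom near. A single intergenic peak lay within 200 bp of one, between bed-1 and dyf-17, 50 bp downstream of the tRNA gene (V, 19125978 to 19126353, score 39.2). This share of 0.249% (interval 0.0440 to 1.40) compared with 9 of 290 intron peaks (3.10%; Fisher's exact test, adjusted p = 0.0236) and 5 of 582 promoter peaks (0.859%; adjusted p = 0.628). The test against introns passed, but it rests on 10 peaks in all and was lost with either of the other promoter windows. A summit inside a tRNA gene could count as an intron or promoter peak, but by the rule never as intergenic. The test therefore cannot show whether intergenic peaks lie near tRNA genes less often. piRNA genes, which fill much of IV, lay within 200 bp of 1 intergenic peak (0.249%, interval 0.0440 to 1.40), against 7.30% of eligible bases. The shares of promoter and intron peaks were also low, at 1.03% and 1.38%. Within 500 bp piRNA genes lay near 19 intergenic peaks (4.74%, interval 3.05 to 7.28), against 9.875% of bases, 1.55% of promoter peaks and 3.10% of intron peaks.

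Short words differed in frequency between intergenic and promoter peaks, and none passed the test against intron peaks. Windows of 201 bp around the summit were searched for every 6-base word, counted together with its reverse complement. Against promoter windows, 112 words (5.38% of those tested) were more frequent at intergenic summits and 141 (6.78%) less frequent, by Fisher's exact test with Benjamini-Hochberg adjustment over all of these words. Against intron windows the same test called none in either direction (0% and 0%). There, 132 words (6.35%) had an unadjusted p under 0.05, and the smallest adjusted p was 0.232. Mean GC content was 46.1% ± 6.13 (SD over 401 windows) at intergenic summits, 43.9% ± 6.70 at promoters, 46.8% ± 6.13 in introns and 33.8% ± 6.91 over 99843 eligible windows laid side by side. The part of base composition in the word counts was not tested.

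GAGAGA led the words that were more frequent than at promoters. It was present at 248 of 401 intergenic summits (61.8%), against 228 of 582 promoter summits (39.2%; Fisher's exact test, adjusted p = 1.04e-09) and 165 of 290 intron summits (56.9%; adjusted p = 0.962), and in 10.5% of eligible windows. The other 7 of the 8 leading words, such as AGAGAG and AAGAAG, are also built of G and A. AAAATT led the other direction, at 17.0% of intergenic summits, against 44.5% of promoter summits (Fisher's exact test, adjusted p = 7.53e-17) and 69.6% of eligible windows. CGTCTC was found at 40.9%, against 33.2% of promoter summits (Fisher's exact test, adjusted p = 0.0931) and 36.2% of intron summits, and in 4.99% of eligible windows. ACGCAG (34.4%) and CACACA (32.7%) likewise did not pass Fisher's exact test against promoters, at 28.9% and 25.3% there with adjusted p-values of 0.254 and 0.077. In eligible windows these were present in 3.86% and 9.15%. CGTCTC and ACGCAG occur together in CTGCGTCTC, which was in 22.7% of intergenic windows, 15.8% of promoter windows, 15.2% of intron windows and 1.12% of eligible windows; this 9-base word was chosen after earlier results were known.

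Together these words reached most of the peaks. At least 1 of the 4 words other than the E-box that are in capitals in the windows above was present in 330 windows (82.3%), and 71 had none of them. This combined share was not counted for promoter, intron or eligible windows. Whether it is higher at intergenic peaks than in those windows was therefore not tested. Singly, the intron shares were 56.9% for GAGAGA, 36.2% for CGTCTC, 23.8% for ACGCAG and 32.4% for CACACA. Peaks with GAGAGA had a median score of 47.9, against 40.7 without it, and peaks with ACGCAG 51.1, against 41.8 without it. GAGAGA was found most often close to the summit: 28.9% of the peaks had it within the 50 bp to the left and 27.4% within the 50 bp to the right. Beyond 500 bp the share per 50-bp bin was 1.50% to 7.23%.

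**Figure D4:**
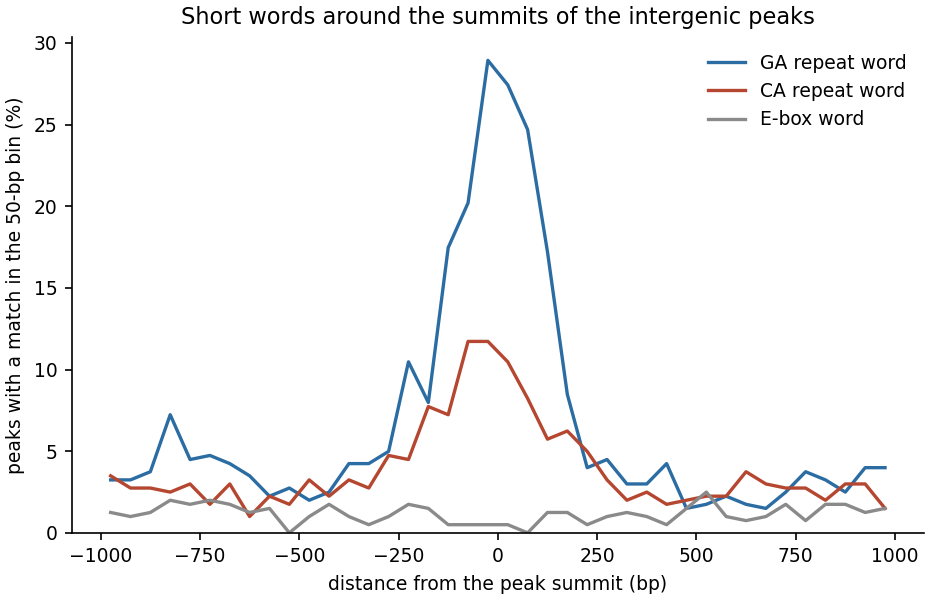
Share of the 401 intergenic peaks with a match in each 50-bp bin (vertical, percent) by distance from the summit in bp (horizontal), for the GA repeat word (GAGAGA), the CA repeat word (CACACA) and the E-box word (CAGGTG), on both strands. The GA repeat word peaks at the summit at 28.9%, and the E-box word stays at or below 2.49% throughout.

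The E-box CAGGTG was rare at the intergenic summits. It was within 100 bp of 6 of them (1.50%, against 2.23% at promoters with adjusted p = 0.755 by Fisher's exact test, and 0.690% in introns), and in 4.57% of eligible windows. None of the other 9 E-boxes of the form CANNTG, nor CAGGTA, passed the test against promoters or introns. Against eligible windows they went both ways, which was not tested. CAATTG (3.99% against 7.95%), CAAATG (14.7% against 15.4%) and CAGGTA (0.998% against 4.43%) were less frequent at the summits. The others were more frequent, most of all CACATG (11.5% against 5.91%) and CAGCTG (6.98% against 2.83%). All 6 CAGGTG peaks lay in tandem gaps. The strongest was 1485 bp from the start of lin-41, which encodes a TRIM-NHL regulator of developmental timing, and 743 bp from M04C9.2 (I, 9343793 to 9344168, score 92.2, rank 202 in replicate 1 and 139 in replicate 2).

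The other 5 CAGGTG sites scored from 30.9 to 59.5, and their words began 71 bp left to 42 bp right of the summit. They lay between Y17G7B.17 and Y17G7B.18 (II, 12102397 to 12102772, 2596 and 746 bp), gpb-1, a G protein beta subunit gene, and F44E5.4 (II, 11749577 to 11749952, 1154 and 7342 bp), and C07A9.12 and dao-6 (III, 9731274 to 9731649, 3923 and 3801 bp). The last pair lay between alh-1, an aldehyde dehydrogenase gene, and cox-6A (III, 5080766 to 5081141, 293 and 770 bp), and between vps-36, an ESCRT-II gene, and ctf-4 (V, 10961547 to 10961922, 1066 and 99 bp). The site at vps-36 ranked 1120 in replicate 1 and 20796 in replicate 2.

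The genes on both sides of the 401 peaks numbered 692 of 17242 autosomal protein-coding genes (4.01%), or 5.21% of the 13287 that adjoin eligible bases. Of the 802 facing gene ends, 532 (66.3%) were 5′ ends. Eligible bases are 32.1% divergent and 13.8% convergent, so 5′ ends are the more frequent facing ends for them as well. Genes that flank an intergenic peak also had a promoter or intron peak of their own in 68 cases (9.83%, interval 7.83 to 12.3), against 521 of the 12595 other genes next to eligible bases (4.14%, interval 3.80 to 4.50). By intron peaks alone the shares were 4.48% and 1.22%. The lists below were written from general knowledge with earlier results of these data known, so their counts are a description and are set beside the 4.01%.

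Genes used by all neurons were the list with the highest share. Of its 25 autosomal members, 13 flanked an intergenic peak (52.0%, interval 33.5 to 70.0), and of the 17 pairs of peak and gene 15 faced the 5′ end. The highest was 1053 bp from egl-3, a proprotein convertase gene of neuropeptide processing, and 4729 bp from cul-5 (V, 10174618 to 10174993, score 115.8). Next were unc-104, the kinesin gene of synaptic vesicle precursor transport, at 1872 bp (II, 6992927 to 6993302, score 85.6), with C15F1.1 1429 bp to the other side. unc-64, the syntaxin gene, had peaks at 1322 and 6196 bp from its start (III, scores 81.8 and 48.4) in its divergent gap with cpf-2. unc-57, the endophilin gene, had a peak at 1097 bp (I, 4673848 to 4674223, score 78.6), with xnp-1 at 2298 bp.

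The other 9 of the 13 scored 74.7 or less. rimb-1, the RIM-binding protein gene (2334 bp, score 74.7), unc-31, the CAPS gene (2259 and 6733 bp, scores 69.1 and 30.9), unc-11, the AP180 gene (1008 bp, 67.8), and maco-1, the macoilin gene (704 bp, 67.7), were followed by ric-4, the SNAP-25 gene (3738 bp, 62.2). Then came snt-1, the synaptotagmin gene, with 1 peak 2288 bp before its start (47.4) and 2 beyond its 3′ end, at 11159 and 12013 bp (32.2 and 31.3). unc-33, a CRMP gene of axon growth (1028 bp, 42.7), unc-13 (1387 bp, 41.4) and cpx-1, the complexin gene (2459 bp, 35.0), completed the 13. Of these 13, 5 also had a promoter or intron peak of their own, against 9.83% of all genes that flank an intergenic peak. Of the 12 others of the list 7 did, against 4.14% of the other genes next to eligible bases. The 5 with no intergenic, promoter or intron peak were snb-1, the synaptobrevin gene, ehs-1, elks-1, ric-19 and snn-1. Of the 12 without an intergenic peak, unc-119, which is mutant in this strain, had an intron peak, and its nearest intergenic peak was 182272 bp away. zag-1 itself, the gene of the tagged protein, had its nearest intergenic peak 30889 bp away, between bris-1 and F28F9.3 (IV, score 47.9).

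**Figure D5:**
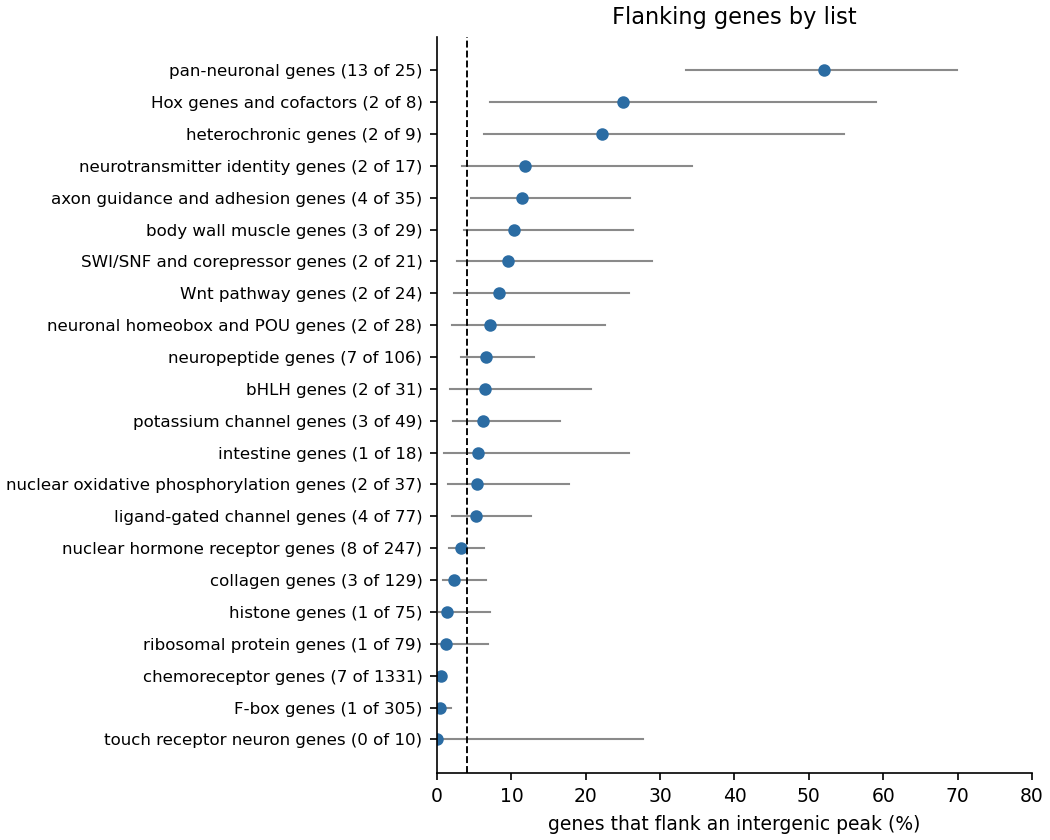
Share of the autosomal protein-coding genes of each list that flank an intergenic peak (horizontal, percent; points) with 95% Wilson intervals (lines) and the counts beside each name. The dashed line is the 4.01% of all autosomal protein-coding genes; the pan-neuronal list lies at 52.0% and the chemoreceptor and F-box lists lie below the line.

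The other neuronal lists had shares from 0% to 11.8%. The interval of the axon guidance list lay wholly above 4.01% but included 5.21%, the share among genes that adjoin eligible bases. Those of the others included 4.01%. Axon guidance and adhesion genes had 4 of 35 (11.4%, interval 4.53 to 25.9): unc-51, a ULK-type kinase gene (1460 bp, score 66.7), ptp-3, a LAR-type phosphatase gene (16200 bp, 47.4), unc-116, the kinesin heavy chain gene (1541 bp, 45.1), and unc-44, an ankyrin gene (1245 bp, 41.2), each facing the 5′ end. Neurotransmitter identity genes had 2 of 17 (11.8%, interval 3.29 to 34.3): cho-1, the choline transporter gene (5003 bp, 34.5), and snf-11, the GABA transporter gene (580 bp, 32.3). Neuropeptide genes had 7 of 106 (6.60%, interval 3.24 to 13.01), and 5 of the 7 were flanked at the 3′ end, led by ins-13 (173.4), nlp-4 (74.9), ins-37 (65.1) and nlp-40 (51.8). The ins-13 peak is the one beside sls-2.2, and the nlp-4 peak lies 44 bp upstream of a snoRNA gene. Potassium channel genes had 3 of 49 (6.12%, interval 2.104 to 16.5), namely slo-1 (1628 bp, 55.2), shl-1 (9415 bp, 46.5) and twk-2 (3160 bp, 39.8). Ligand-gated channel genes had 4 of 77 (5.195%, interval 2.04 to 12.6): the acetylcholine receptor subunit gene unc-63 (1223 bp, 61.8), lgc-29 (40.4), lgc-12 (33.5) and lgc-50 (31.3). Touch receptor neuron genes had 0 of 10, which allows a share of up to 27.8% by the Wilson interval.

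Lists of regulators were small. Heterochronic genes, which time larval development, had 2 of 9 (22.2%, interval 6.32 to 54.7): lin-41 (1485 bp, score 92.2) and lin-28, an RNA-binding protein gene (591 bp, 34.7). The share was 11.1% without replicate 1. Hox genes and cofactors had 2 of 8 (25%, interval 7.15 to 59.1), namely ceh-20, a PBX-type cofactor gene (837 bp, 36.0), and ceh-13, the labial-type Hox gene (1940 bp from its 3′ end, 33.5). The Wnt list had 2 of 24, the Frizzled gene mom-5 (2688 bp, 42.8) and the casein kinase gene kin-19 (1142 bp, 35.0). Homeobox and POU genes had 2 of 28, ceh-48 (2140 bp, 67.4) and lim-7 (9548 bp, 40.5). The bHLH list had 2 of 31, hif-1 (1981 bp, 122.4) and hlh-10 (6695 bp from its 3′ end, 81.2). SWI/SNF and corepressor genes had 2 of 21, rcor-1, the CoREST gene (452 bp from its 3′ end, 51.8), and swsn-4 (607 bp, 39.8). Nuclear hormone receptor genes had 8 of 247 (3.24%), led by nhr-88 with 2 peaks (91.0 and 72.7), nhr-20 (50.2), nhr-4 (48.1) and nhr-258 (46.2). The intervals of the heterochronic and Hox lists lay wholly above 4.01%, and those of the Wnt, homeobox, bHLH, SWI/SNF and nuclear hormone receptor lists included it.

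Among genes of other tissues and large families, 3 lists had shares above 4.01% and 5 had shares below it. Body wall muscle genes had 3 of 29 (10.3%, interval 3.58 to 26.4): dyb-1, a dystrobrevin gene (1394 bp, score 55.7), unc-60, an ADF/cofilin gene (3356 bp, 46.3), and unc-95 (4364 bp, 33.1). The intestine list had 1 of 18 (5.56%, interval 0.988 to 25.8), let-413 (2718 bp, 50.1). Collagen genes had 3 of 129 (2.33%), col-50 (73.6 and 29.8), col-83 (60.02) and col-108 (34.3). Nuclear oxidative phosphorylation genes had 2 of 37 (5.41%, interval 1.495 to 17.7), or 16.7% of the 12 that adjoin eligible bases: nuo-4, a complex I subunit gene (216 bp from its 3′ end, 103.7), and cox-6A (770 bp, 33.3). Ribosomal protein genes had 1 of 79 (1.27%, interval 0.224 to 6.83), rps-25 (5666 bp, 83.4). That share was 3.80% from either replicate alone, and 25.3% when the promoter window began 250 bp upstream. With that window there were 545 intergenic peaks, and the share of all genes that flank them is not given here. The 4.01% belongs to the window from 500 bp. Histone genes had 1 of 75 (1.33%, interval 0.236 to 7.17), his-70. Chemoreceptor genes, the largest list, had 7 of 1331 (0.526%, interval 0.255 to 1.08), led by srw-60 (91.0), and F-box genes 1 of 305 (0.328%, interval 0.0579 to 1.83), fbxb-69 (29.8). The last pair of intervals lay wholly below 4.01% and those of the other 6 lists included it; 1212 of the chemoreceptor and 254 of the F-box genes adjoin eligible bases.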

How the data were processed

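Chromatin immunoprecipitation and sequencing gave, for each of 2 biological replicates, a list of peaks in ce11. Per the deposited file descriptions, the authors made each replicate's list from its alignment and a control alignment, a pooled list from both, and the IDR-thresholded list from these 3. Which program called the peaks, and with what settings, is not given in the sources used here. Each deposited list gives the authors' score per peak, the authors' −log10 q-value and the authors' summit offset. The score was used within a list only; the q-values were not used for ranking. The ce10 lists and control reads were not analysed here, and depth is unknown.

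Positions were compared with WBcel235 genes (Ensembl release 115) and sequence was read from RefSeq, both the same assembly as ce11. Symbols shared by several genes were replaced by gene IDs, and 5 listed symbols were not found. Classes were compared with two-sided Fisher's exact tests and Benjamini-Hochberg adjustment at 0.05; shares have 95% Wilson intervals. Overlap needed 1 bp, and a peak took the overlapping replicate peak with the nearest summit. Python 3.11.15, numpy 2.4.6, scipy 1.17.1 and matplotlib 3.10.9 were used, and the tests were tested on simulated data. Peaks named were the 12 highest-scoring, all with CAGGTG within 100 bp, up to 4 per gene list, the 3 nearest a tRNA or miRNA gene (of which those within 200 bp are given), the 3 farthest from protein-coding genes and 3 on each side of the 500 bp limit. Those at snoRNA and SL2 RNA genes, in convergent gaps, in gaps with 3 peaks, and the remaining pan-neuronal genes were chosen after their values were seen. The intergenic rule, the lists and the tests were chosen with earlier results of these data known. Alternatives were other promoter windows, gene sets, overlap rules, distances and word windows, the higher-scoring 50% of peaks, and each replicate's 1803 highest-scoring peaks alone.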

Additional observations from a re-analysis of the deposited data

How the results depend on the processing

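The share of all peaks that was autosomal and intergenic was 30.2% with a promoter window from 250 bp upstream, 17.5% from 1000 bp and 26.2% when only protein-coding genes were counted. The tRNA difference from introns did not pass with windows from 250 or 1000 bp (−2.56 and −2.84 points) or in the higher-scoring 50% (−2.34); from promoters it turned to 0.550 points at 250 bp. The difference in another peak within 1 kb from introns turned to 0.321 points in the higher-scoring 50% and passed at 2 kb (−11.4 points, adjusted p = 0.00681 by Fisher's exact test). From promoters it ran from 2.66 to 5.31 points with 1 replicate left out, and passed without replicate 1. Overlap with replicate 2 against promoters turned to −0.512 points when 50% of the peak had to overlap and −0.233 with all its peaks. CAGGTG against promoters turned to 0.709 points at 250 bp. CGTCTC passed within 150 bp (10.7 points). Words called against promoters numbered 144 at 250 bp, 120 in the higher-scoring 50% and 147 within 50 bp, against 253, and 0 against introns. The share of ribosomal protein genes that flank a peak was 25.3% at 250 bp, where peaks 251 to 500 bp from starts join. The share of all genes at that setting is not given here. GAGAGA kept its direction and side of the threshold in all 7 alternatives run, and the pan-neuronal share stayed within its interval in all 6. That interval is wide, and the share was 36% with the nearer flanking gene only and 40% in the higher-scoring 50%. The highest value was 56%, at 250 bp and without replicate 1. With 1 replicate left out, the share of heterochronic genes ran from 11.1% to 22.2%, and that of peaks in convergent gaps from 3.73% to 5.33%. The difference in scores above the list median ran from −4.46 to −3.07 points against promoters and from 1.57 to 6.73 points against introns. That in another peak within 1 kb against introns ran from −1.89 to −1.12 points. The tRNA difference from promoters ran from −0.54 to −0.114 points, and that of CAGGTG from −0.828 to −0.306. The cause of the other changes was not tested. No paired analysis was possible because the replicates form 1 group. Peak lists give no read counts, so weak sites missing from them may lie below detection.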
